A study of Mus musculus with 9 samples.

Results

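The route from acetyl-CoA to lanosterol was followed in mouse liver through the transcripts of 9 enzymes: Hmgcs1, Mvk, Pmvk, Mvd, Idi1, Fdps, Fdft1, Sqle and Lss. These genes were taken by name from the deposited tables. All 9 were found among the 42188 genes listed, and all 9 were among the 14603 genes that passed the filter on low counts and were tested.

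In this pathway Hmgcs1 makes HMG-CoA, from which mevalonate is formed, and the kinases Mvk and Pmvk with the decarboxylase Mvd turn mevalonate into the isoprene unit. Idi1 and Fdps build farnesyl diphosphate from that unit, Fdft1 joins farnesyl groups into squalene, and Sqle and Lss oxidise and close squalene into lanosterol, from which cholesterol is made. Liver is a main site of cholesterol synthesis, and the genes of the route are switched on together by the transcription factor encoded by Srebf2 when sterols in the endoplasmic reticulum run low.

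RNA was sequenced from whole livers of 9 mice in 3 groups of 3. Control mice received phosphate-buffered saline by the tail vein. ConA mice received concanavalin A, a lectin from jack beans that stimulates T cells and inflames the liver, at 20 mg/kg by the same route. MSA_ConA mice also received MSA, injected into the peritoneum at 250 mg/kg and 6 h ahead of the lectin. MSA was read as mesaconate, a dicarboxylic acid named in the study's title. Livers were taken 12 h after concanavalin A. Every animal was labelled as a C57BL/6J male, 8 weeks old and weighing 20 to 25 g. No saline injection into the peritoneum is stated for the Control and ConA groups, and no group received MSA alone. The question set by the design is what the lectin did to liver transcripts and whether MSA given beforehand altered that response.

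Libraries held 13294600 to 17276391 counts and carry a number from 1 to 3 within each group. The 3 libraries numbered 1 stood apart from the 6 numbered 2 or 3, and transcripts of sex and strain went against the labels of those 6. Xist, made from the silenced X of females, was at or below 0.485 CPM (counts relative to library size) in number 1, while numbers 2 and 3 gave 666 to 1130.4 CPM. Nnt, partly deleted in C57BL/6J, measured at most 34.6 CPM in number 1 and at least 168 CPM in the others. Dbp, a clock gene, stood at 6.01 to 10.3 CPM in number 1, and the other libraries had 99.7 to 250.4 CPM. Libraries are named here by their labels. The 3 treatment tests are given with and without number 1, and the members' values are given library by library. The part of sex, strain and clock time in the members' values was not tested. In whole liver, fewer cells of a type and less RNA per cell cannot be told apart. All CPM values below are scaled by TMM factors, which correct for differences in library make-up.

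RefSeq's promoter table (GRCm38.p6) held 6 of the 9 members. The 250 bases before the transcription start are shown for 4 of them, HMG-CoA synthase and the kinases and decarboxylase that act on mevalonate, to set Pmvk beside its neighbours in the route. With TMM scaling Pmvk had its highest CPM in the library labelled MSA_ConA 1, where each of the other 8 members had its lowest. With library totals Pmvk was not highest there. Capitals mark the core of the sterol regulatory element, searched as TCACNCCAC, and the CCAAT box, searched as CCAAT, each on both strands. The start used for Pmvk is the first of 2 in the table.
Hmgcs1, chr13:119690101-119690350, plus strand: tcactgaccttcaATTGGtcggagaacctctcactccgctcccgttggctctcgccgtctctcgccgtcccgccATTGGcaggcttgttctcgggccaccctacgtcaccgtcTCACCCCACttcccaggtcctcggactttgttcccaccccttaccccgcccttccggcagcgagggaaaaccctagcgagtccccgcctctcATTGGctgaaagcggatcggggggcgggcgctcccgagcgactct
Mvk, chr5:114444019-114444268, plus strand: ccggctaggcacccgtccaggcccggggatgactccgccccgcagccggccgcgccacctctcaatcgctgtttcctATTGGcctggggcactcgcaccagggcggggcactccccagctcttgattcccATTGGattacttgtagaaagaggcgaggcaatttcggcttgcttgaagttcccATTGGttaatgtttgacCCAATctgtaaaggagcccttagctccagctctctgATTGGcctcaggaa
Mvd, chr8:122443423-122443672, minus strand: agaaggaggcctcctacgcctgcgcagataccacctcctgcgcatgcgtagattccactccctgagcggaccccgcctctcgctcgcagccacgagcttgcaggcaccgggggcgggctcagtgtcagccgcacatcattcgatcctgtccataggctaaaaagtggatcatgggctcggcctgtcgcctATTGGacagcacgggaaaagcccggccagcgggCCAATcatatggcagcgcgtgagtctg
Pmvk, chr3:89454291-89454540, plus strand: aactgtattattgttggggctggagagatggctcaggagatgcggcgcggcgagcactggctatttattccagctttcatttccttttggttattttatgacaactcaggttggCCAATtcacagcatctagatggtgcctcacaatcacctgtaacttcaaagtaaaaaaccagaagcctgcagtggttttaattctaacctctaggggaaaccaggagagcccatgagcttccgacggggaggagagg

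In windows that run from 250 bases before the start to 50 after it, the sterol regulatory element core matched 1.24% of 32851 promoters. Among the 6 members it matched Hmgcs1 alone, as TCACCCCAC from position -137 to -129. A CCAAT box was present in all 6 members and in 37.4% of all promoters. It occurred 5 times in Mvk, and once, at -136 to -132, in Pmvk, whose other listed start had none. A GC box, GGGCGG on either strand, was present in 5 of the 6 and in 35.7% of all promoters, and Pmvk was the member without one. The E-box CACGTG, present in 7.15% of promoters, was in none of the 6. These are matches of letters, not measured binding sites.

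Hmgcs1 (MGP_C57BL6NJ_G0021362, 13:126315234-126333479 in the deposited coordinates of the C57BL/6NJ assembly) had the most transcript per length in 7 of the 9 libraries. It measured 506, 319 and 203 CPM in Control 1 to 3. In ConA 1 to 3 it measured 48.2, 344 and 205 CPM. In MSA_ConA 1 to 3 it measured 15.8, 461 and 247 CPM. The 3 groups overlapped: the 2 lowest values of the set were those of ConA 1 and MSA_ConA 1, while the highest was Control 1. Between single libraries, Hmgcs1 was 10.5-fold lower in ConA 1 than in Control 1 (exact 95% interval 9.59 to 11.5, counting error only). It was 32.0-fold lower in MSA_ConA 1 than in Control 1 (26.7 to 38.7). In numbers 2 and 3 the same ratios lay between 1.01-fold and 1.44-fold higher than Control.

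Mvk (5:121706859-121723367), which phosphorylates mevalonate, measured 36.7, 42.9 and 25.7 CPM in Control, 22.5, 34.3 and 17.6 CPM in ConA, and 8.30, 27.7 and 17.1 CPM in MSA_ConA. Mvd (8:130155835-130185654), the decarboxylase that follows both phosphorylations, measured 73.1, 45.7 and 30.6 CPM in Control, 26.9, 35.7 and 16.5 CPM in ConA, and 8.82, 23.9 and 17.6 CPM in MSA_ConA. Both genes were lower in all 6 treated libraries than in the Control library of the same number. Of all tested genes, 9.31% were lower in all 6, or 11.6% when libraries were scaled by their totals. MSA_ConA 1 was 4.42-fold below Control 1 for Mvk (3.40 to 5.85) and 8.29-fold below it for Mvd (6.47 to 10.8). In numbers 2 and 3 the MSA_ConA libraries were 1.55-fold and 1.50-fold below Control for Mvk, and 1.91-fold and 1.74-fold below it for Mvd. Over all 9 libraries, Mvd was the only member whose MSA_ConA values all lay below its Control values. This was 1 of 9 beside 7.34% of all tested genes, so the count is near the background. In numbers 2 and 3 alone this also held for Pmvk, while Idi1 lay above Control. The share of all genes was not counted there.

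Pmvk (3:93066920-93076209), the kinase that acts between Mvk and Mvd, went the other way in number 1. It measured 56.3, 47.5 and 30.9 CPM in Control, 67.2, 32.0 and 15.5 CPM in ConA, and 83.2, 20.2 and 20.0 CPM in MSA_ConA. With TMM scaling the 3 libraries numbered 1 were all above the 6 others, which held for this 1 member and for 14.8% of all tested genes. With library totals this did not hold, because Control 2, at 910 of 16233684 counts, lay above the libraries numbered 1. The raw counts of Pmvk in number 1 were nearly level, at 756, 693 and 632, so its direction there rests on the scaling. With TMM it was 1.48-fold higher in MSA_ConA 1 than in Control 1 (1.33 to 1.65), and with library totals its ratio was 0.889. In numbers 2 and 3 it was 2.35-fold and 1.54-fold lower in MSA_ConA than in Control.

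Idi1 (13:5809415-5819027), which isomerises the isoprene unit, had few counts. It measured 0.521, 2.45 and 2.91 CPM in Control, 1.45, 4.74 and 3.01 CPM in ConA, and 0, 10.9 and 5.05 CPM in MSA_ConA. Number 1 was lowest in every group, and the 3 libraries numbered 1 all lay below the 6 others, which held for this 1 member and for 19.2% of all tested genes. Idi1 had 0 counts in MSA_ConA 1 and 15 in ConA 1. The exact counting interval of that ratio was 0 to 0.379, which is at least 2.64-fold lower. Against the 7 counts of Control 1 the interval was 0 to 1.23, so a drop from Control 1 was not shown. In number 2 Idi1 was 4.47-fold higher in MSA_ConA than in Control (3.24 to 6.28). In number 3 it was 1.73-fold higher (1.24 to 2.45).

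Fdps (3:92644556-92667295), the synthase of farnesyl diphosphate, measured 27.1, 12.2 and 5.04 CPM in Control, 2.71, 8.14 and 6.47 CPM in ConA, and 0.263, 8.85 and 8.81 CPM in MSA_ConA. It was highest in Control 1 and lowest in MSA_ConA 1, which held 2 counts against 364. The ratio of MSA_ConA 1 to Control 1 was 0.00972, with a counting interval of 0.00117 to 0.0354. Transcripts of at least 90% identity over 200 bases or more were found in GENCODE M21 for 6 other genes in the case of Fdps, 5 of them pseudogenes, and for 4 in the case of Idi1, 3 of them pseudogenes. How reads shared among such copies were counted is not given in the sources used here, so both genes' counts are uncertain.

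The 3 steps from farnesyl diphosphate to lanosterol were lower in MSA_ConA 1 than in any other library. Fdft1 (14:60391854-60425117), squalene synthase, measured 143, 91.9 and 81.2 CPM in Control, 64.5, 97.4 and 74.4 CPM in ConA, and 38.2, 109.6 and 72.5 CPM in MSA_ConA. Sqle (15:60790542-60809424), squalene epoxidase, measured 58.3, 84.6 and 75.0 CPM in Control, 84.7, 114 and 54.7 CPM in ConA, and 18.4, 127 and 73.2 CPM in MSA_ConA. Lss (10:79485739-79511363), lanosterol synthase, measured 100.4, 83.3 and 57.3 CPM in Control, 38.0, 73.1 and 53.5 CPM in ConA, and 30.8, 71.7 and 61.5 CPM in MSA_ConA.

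MSA_ConA 1 was 3.75-fold below Control 1 for Fdft1 (3.31 to 4.26), 3.16-fold below it for Sqle (2.64 to 3.81) and 3.26-fold below it for Lss (2.83 to 3.76). The 3 genes differed at ConA 1: Fdft1 and Lss were 2.22-fold and 2.64-fold below Control 1, while Sqle was 1.45-fold higher (1.32 to 1.60), a ratio of 1.03 with library totals. Fdft1 overlaps Ctsb, a lysosomal protease gene on the opposite strand with 5423 to 13963 counts, and whether counting used strand is not given in the sources used here, so its counts are uncertain too.

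**Figure D1:**
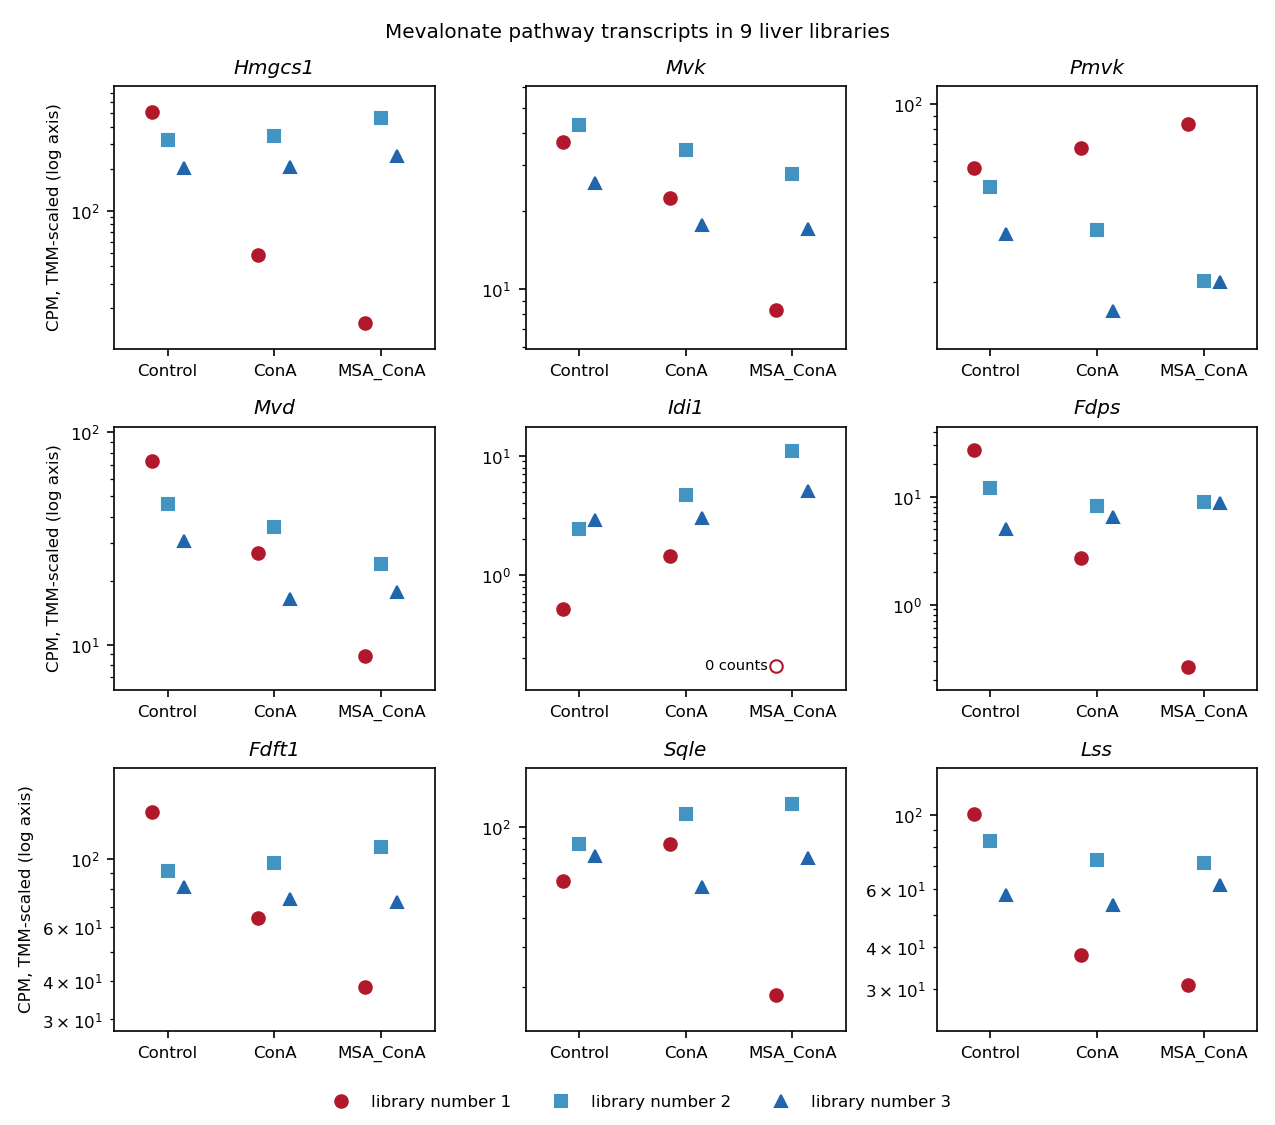
TMM-scaled CPM of the 9 pathway genes (log axis, its range set for each gene) in the Control, ConA and MSA_ConA libraries. Each point is 1 library, with number 1 in red and numbers 2 and 3 in blue, and the open circle for Idi1 marks 0 counts. In MSA_ConA, number 1 is the lowest of the 3 libraries for every gene but Pmvk, where it is the highest at 83.2 CPM.

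Over the 9 members, the median log2 ratio of MSA_ConA 1 to Control 1, computed on CPM + 1, was -1.88, beside -0.05 for all tested genes, and 8 of the 9 were lower. ConA 1 against Control 1 gave a median of -1.14 with 6 lower, beside -0.05 for all genes. MSA_ConA 1 against ConA 1 gave -1.34 with 8 lower, beside 0 for all genes. In number 2 the median of the members was -0.19 for ConA over Control and -0.21 for MSA_ConA over Control. In number 3 the same medians were -0.12 and -0.03. These are ratios between single libraries, with no replicate within number 1 and no test. The scaling sets their size: with library totals MSA_ConA 1 was 53.2-fold below Control 1 for Hmgcs1, 7.36-fold for Mvk, 13.8-fold for Mvd, 6.24-fold for Fdft1, 5.26-fold for Sqle and 5.42-fold for Lss. Pmvk, 1.48 times its Control 1 level with TMM scaling, was at 0.889 times it with library totals.

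**Figure D2:**
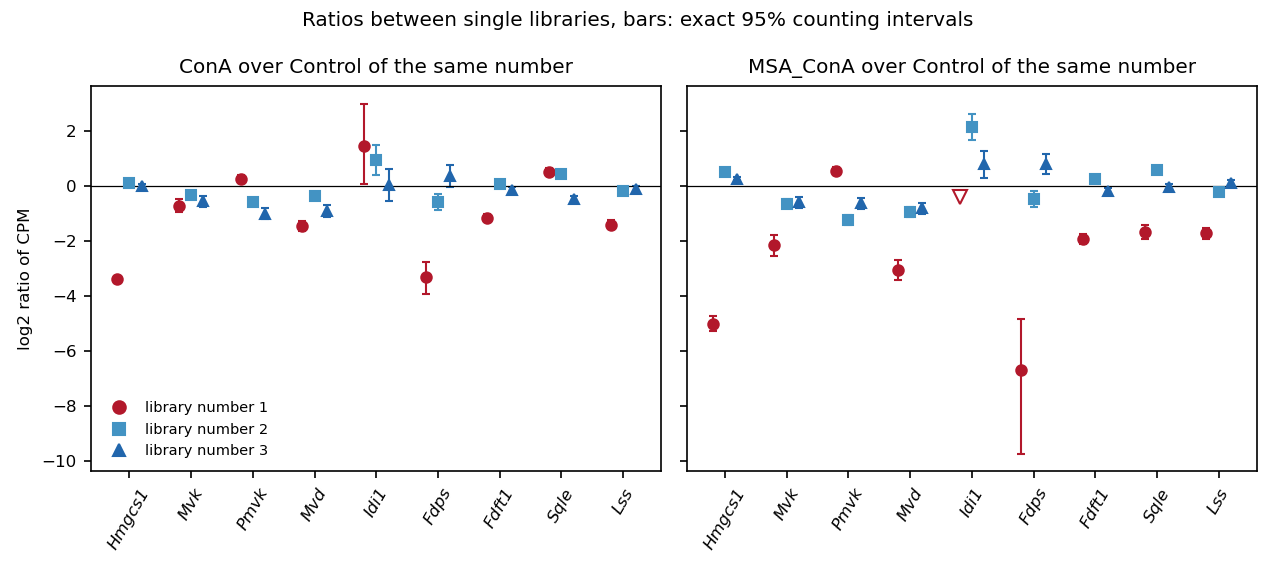
The log2 ratio of CPM between a treated library and the Control library of the same number, for ConA (left) and MSA_ConA (right). Bars are exact 95% counting intervals between 2 libraries. The open triangle places Idi1, at 0 counts in MSA_ConA 1, as if it had 3 counts, and is not a limit. In number 1 Hmgcs1 and Fdps lie below -3 in both panels, and in numbers 2 and 3 the members lie between -1.23 (Pmvk) and 2.16 (Idi1).

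The 3 treatment comparisons called no member. In edgeR's quasi-likelihood test on all 9 libraries, at an adjusted p under 0.05, ConA against Control, MSA_ConA against ConA and MSA_ConA against Control each called 0 of 9 members, and 0% of the tested genes (0 percent in each). At an unadjusted p under 0.05 the test gave 563, 248 and 730 of all genes. Among the members only Mvd, in MSA_ConA against Control, had an unadjusted p under 0.05. Limma-voom also called 0 genes, and DESeq2 called 2, 1 and 64 genes, none of them a member.

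For ConA against Control the fitted log2 changes of the members ran from -1.35 for Fdps (SE 1.01) to 0.64 for Idi1 (SE 1.25), with a median of -0.50 beside 0.07 for all genes. For MSA_ConA against ConA they ran from -0.65 for Mvd (SE 0.48) to 0.80 for Idi1 (SE 1.24), with a median of -0.00 beside 0.02 for all genes. For MSA_ConA against Control they ran from -1.57 for Mvd (SE 0.49, adjusted p = 0.937) to 1.45 for Idi1 (SE 1.26), with a median of -0.52 beside 0.07 for all genes. The standard error of Hmgcs1 in ConA against Control was 1.02, larger than its change of -0.78.

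With the libraries numbered 2 and 3 only, the same 3 comparisons again called 0 of 9 members and 0% of 14851 genes. Hmgcs1 then stood at 0.06 (SE 0.37) in ConA against Control and at 0.44 (SE 0.37) in MSA_ConA against Control. Idi1 had the smallest p among the members in MSA_ConA against Control, at a log2 change of 1.58 (SE 0.42) and an adjusted p of 0.0995. Pmvk stood at -0.96 (SE 0.33, adjusted p = 0.149) and Mvd at -0.88 (SE 0.36, adjusted p = 0.195). In this comparison the smallest adjusted p over all genes was 0.0829, by edgeR's quasi-likelihood test with Benjamini-Hochberg adjustment. This fit leaves the difference between numbers 2 and 3 in its error. With the number as a block, added after the values were seen and with 2 residual degrees of freedom, 0 members and 0 genes were called. The standard errors were then smaller: MSA_ConA against Control stood at -0.61 for Mvk (SE 0.14, adjusted p = 0.132), -0.86 for Mvd (SE 0.19, adjusted p = 0.131), -0.90 for Pmvk (SE 0.25, adjusted p = 0.147) and 1.47 for Idi1 (SE 0.39, adjusted p = 0.142). At an unadjusted p under 0.05 this comparison gave 3108 of 14851 genes, and 5 of the members: these 4 and Hmgcs1.

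Between libraries numbered 1 and those numbered 2 and 3, with the group in the model, Pmvk was higher and Idi1 was lower. Pmvk had a log2 difference of 1.40 (SE 0.33, adjusted p = 0.0117) and Idi1 one of -2.68 (SE 0.86, adjusted p = 0.0384). The test called 19.1% of all genes higher and 19.2% lower, so that 2 of 9 members is not above the background. The other 7 members ran from -1.52 for Hmgcs1 (SE 1.02) to 0.03 for Mvd (SE 0.42). Pmvk fell short of the threshold without ConA 1 (adjusted p = 0.0539), without MSA_ConA 1 (adjusted p = 0.0685) and with library totals (0.63, adjusted p = 0.0941). Idi1 fell short when any 1 of 7 libraries was left out, with adjusted p from 0.0504 to 0.0743; ConA 1 and MSA_ConA 1 were the exceptions. Without Control 1, the library with the most Hmgcs1, the test called 1 member higher and 4 lower, among them Hmgcs1 at -3.38 (adjusted p = 0.00293), beside 24.7% of all genes higher and 28.9% lower.

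Control 1 was also set against Control 2 and 3, a comparison added after the values were seen. It holds 1 library on one side, which is assumed to vary like the pairs of numbers 2 and 3 in the 3 groups. Fdps was higher in Control 1 than in Control 2 and 3, at a log2 difference of 1.66 (SE 0.44, adjusted p = 0.0308), and Idi1 was lower, at -2.35 (SE 0.70, adjusted p = 0.0436), beside 12.1% of genes called higher and 15.7% called lower, so that 1 of 9 in each direction is not above the background. Without Control 3, neither was called, at an adjusted p of 0.0598 for Fdps and 0.141 for Idi1, and Idi1 was also not called without Control 2 (0.0799), ConA 2 (0.0544) or ConA 3 (0.0565), with DESeq2 (0.0530) and with limma-voom (0.187). Of the 7 others, Hmgcs1 stood at 0.95 (SE 0.44, adjusted p = 0.145) and Mvd at 0.94 (SE 0.43, adjusted p = 0.141).

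Whether the response to the lectin differed between number 1 and numbers 2 and 3 was tested in 1 model with a mean for every group and number class, which has 3 residual degrees of freedom and 1 library for each mean of number 1. The ConA effect was lower in number 1 for Hmgcs1, by a log2 difference of -3.47 (SE 0.67, adjusted p = 0.00914), and for Fdps, by -3.08 (SE 0.71, adjusted p = 0.0171). The background was 15.4% of genes called lower and 15.6% called higher, and no member was called higher. Both calls stood without any 1 of the libraries numbered 2 or 3. Lss (-1.25, SE 0.40, adjusted p = 0.0509) and Fdft1 (-1.14, SE 0.40, adjusted p = 0.0669) fell short of the threshold.

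The step from ConA to MSA_ConA differed by number for Sqle and Idi1. Sqle had a difference of -2.44 (SE 0.67, adjusted p = 0.0448), beside 10.1% of genes called lower and 8.61% called higher. Its call was lost without Control 2 (adjusted p = 0.0806), Control 3 (0.0815), ConA 3 (0.0650) or MSA_ConA 2 (0.0658), with limma-voom (0.0693) and on FPKM, the deposited values per length (0.0567 to 0.0702). Idi1 had an adjusted p of 0.0249. Its fitted difference of -8.59 rests on a library with 0 counts and depends on the prior count, so its size is no bound. Its call was lost without ConA 3 (adjusted p = 0.0549), with limma-voom (0.112) and on log2(FPKM + 1), where the difference was -1.90 (0.0747). Hmgcs1, Mvk, Mvd, Fdps and Fdft1 had differences from -3.60 (Fdps, adjusted p = 0.0582) to -0.84 (Fdft1) and were not called.

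MSA_ConA against Control, a difference also added after the values were seen, was lower in number 1 than in numbers 2 and 3 for 6 of the 9 members, beside 16.6% of all genes called lower and 16.0% called higher. These members differed by -5.44 for Hmgcs1 (SE 0.72, adjusted p = 0.00234), -6.68 for Fdps (SE 0.96, adjusted p = 0.00308), -1.98 for Fdft1 (SE 0.41, adjusted p = 0.0109), -1.63 for Lss (SE 0.41, adjusted p = 0.0215), -2.17 for Mvd (SE 0.68, adjusted p = 0.0451) and -7.66 for Idi1 (adjusted p = 0.0340). The sizes for Fdps and Idi1 rest on 2 and 0 counts in MSA_ConA 1 and are no bound: that of Fdps ran from -7.45 to -2.89 over the 10 settings that kept all libraries, and it was called in each. Sqle (-1.98, SE 0.67, adjusted p = 0.0574) and Mvk (-1.53, SE 0.71, adjusted p = 0.139) were lower without passing the test, and Pmvk stood at 1.53 (SE 0.58, adjusted p = 0.0823). The calls of Hmgcs1, Fdps, Fdft1 and Lss stood without any 1 of the libraries numbered 2 or 3. Mvd was not called without Control 2 (adjusted p = 0.0596), Control 3 (0.106) or MSA_ConA 2 (0.0750), and Idi1 was not called without Control 2 (0.0645) or Control 3 (0.0601). With limma-voom neither was called, at 0.0968 for Mvd and 0.148 for Idi1, and on log2(FPKM + 1) neither was called, at 0.0618 and 0.0802. On log2(FPKM + 0.1) Mvd was not called (0.0560). The median over the 9 members was -1.98, beside -0.12 for all genes. This difference shares its Control libraries with the ConA difference and its MSA_ConA libraries with the step from ConA to MSA_ConA, so the 3 are not independent.

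**Figure D3:**
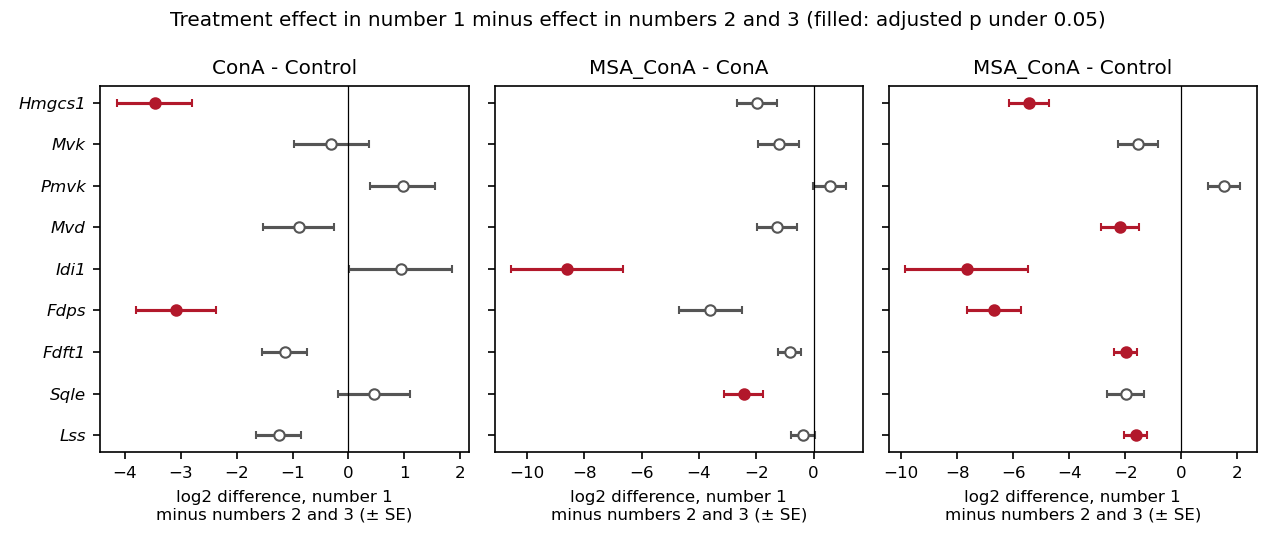
Treatment effect in number 1 minus the effect in numbers 2 and 3 (log2, bars are the standard error) for the 9 members and 3 comparisons. Filled red points passed an adjusted p of 0.05 in edgeR's quasi-likelihood test: 2 of 9, 2 of 9 and 6 of 9 members, all of them below 0, and the value of Idi1 in the middle and right panels depends on the prior count.

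Per length, the make-up of the pathway's transcripts shifted in the same 2 libraries. Hmgcs1 took 38.3% to 54.7% of the members' summed FPKM in 7 libraries, 11.2% in ConA 1 and 5.07% in MSA_ConA 1. Pmvk took 5.95% to 15.4% in those 7 libraries, 38.7% in ConA 1 and 66.2% in MSA_ConA 1. The FPKM ratio of Pmvk to Hmgcs1, which does not depend on how libraries are scaled, was 3.46 in ConA 1 and 13.1 in MSA_ConA 1, against 0.109 to 0.377 in the others. The members' summed FPKM was highest in Control 1, at 329.9, and lowest in MSA_ConA 1, at 98.5. Control 2 and Control 3 stood at 233 and 162, ConA 1 to 3 at 134, 223 and 136, and MSA_ConA 2 and 3 at 261 and 154, so ConA 1 differed little from ConA 3 in the sum and much in its make-up. Fdft1 took rank 2 or 3 in every library, and Lss, Idi1 and Fdps held the last 3 places in all.

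**Figure D4:**
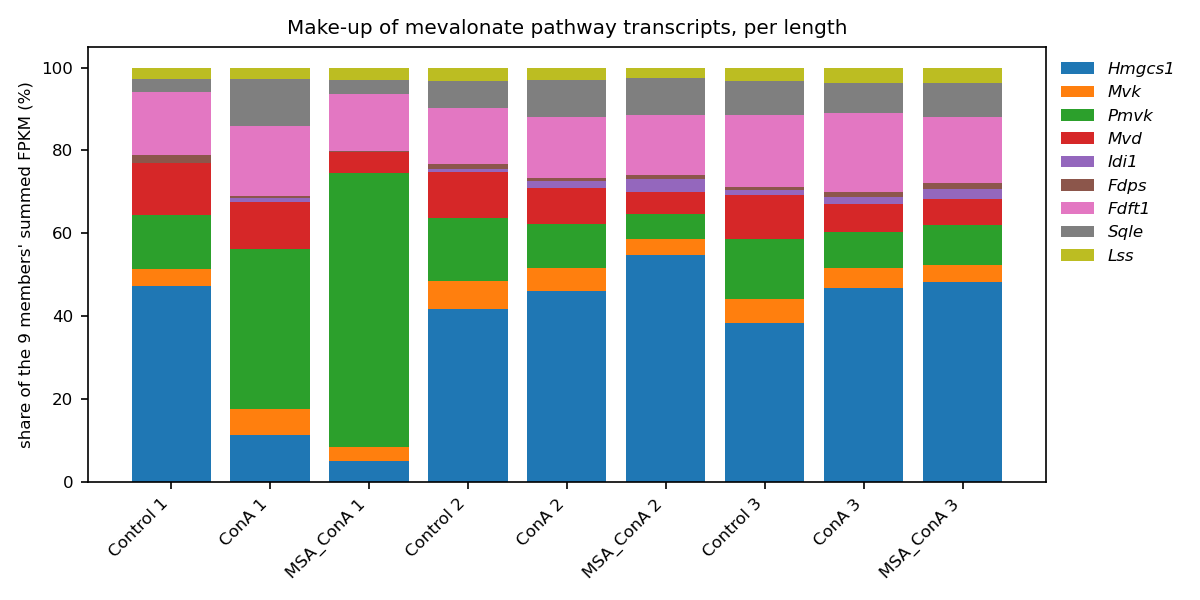
Share of each member in the summed FPKM of the 9 members (percent, stacked to 100) in every library. Hmgcs1 (blue) is the largest share in 7 libraries, and Pmvk (green) is the largest in ConA 1 (38.7%) and MSA_ConA 1 (66.2%).

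Among the regulators, Srebf2 measured 47.8 to 80.3 CPM, with MSA_ConA 1 lowest, and passed none of the tests. Insig1, which retains the sterol sensor complex in the endoplasmic reticulum and is itself a sterol-regulated gene, measured 64.2 CPM in ConA 1 and 81.9 CPM in MSA_ConA 1, against 273 CPM in Control 1 and 177 to 292 CPM in numbers 2 and 3. Its ConA effect was lower in number 1 by -2.13 (SE 0.43, adjusted p = 0.0110).

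Of the 9 enzymes that carry lanosterol to cholesterol, 1 was higher and 2 were lower in number 1 by the test, near the background of 19.1% and 19.2% of all genes. Hsd17b7, a ketoreductase, was lower in number 1 at -1.61 (SE 0.41, adjusted p = 0.0162), and Ebp, the sterol isomerase, was higher at 0.84 (SE 0.22, adjusted p = 0.0169). In the ConA difference 3 of the 9 were lower and 0 higher, beside 15.4% and 15.6% of all genes. In the difference of MSA_ConA against Control 2 were lower and 1 higher, beside 16.6% and 16.0%. Their median log2 ratio of CPM + 1 was -0.89 in ConA 1 against Control 1 and -0.47 in MSA_ConA 1 against Control 1, where the 9 members had -1.14 and -1.88.

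Of 51 further listed genes of sterol and fatty acid metabolism, the late enzymes included, 49 were in the table and all 49 were tested, with none called in the 3 treatment comparisons. The 10 enzymes on the branches from farnesyl diphosphate, to dolichol, ubiquinone and protein prenylation, had a median log2 ratio of -0.49 in ConA 1 and -0.06 in MSA_ConA 1 against Control 1. The 9 genes of sterol sensing had medians of 0.05 and 0.12. The liver X receptor list holds genes that respond to sterol excess, together with Nr1h3 and Nr1h2, which encode the receptors themselves. Its 7 genes had medians of -0.42 and 0.36. The 5 measured genes of fatty acid synthesis had medians of -0.37 and 0.10.

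**Figure D5:**
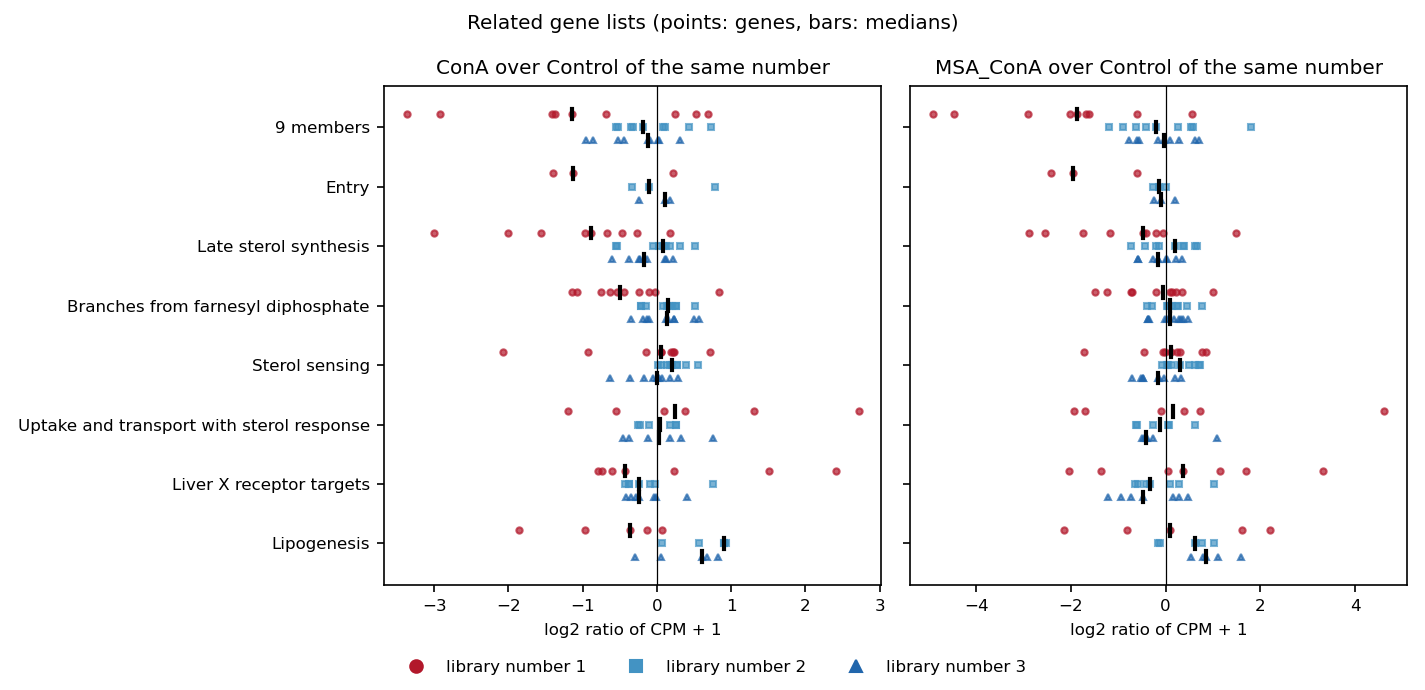
The log2 ratio of CPM + 1 between a treated library and the Control library of the same number, for the 9 members and 7 lists of related genes. Points are genes and black bars medians. In number 1 the members' median is -1.14 for ConA (left) and -1.88 for MSA_ConA (right), and the median of the sterol sensing list stands at 0.05 and 0.12.

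The hepatocyte markers of the labelled tissue were present: the 5 measured hepatocyte genes summed to 83387 to 131416 CPM, with ConA 1 lowest and MSA_ConA 1 highest. Summed markers of several other cell types stood apart in ConA 1, MSA_ConA 1 or both, the libraries with the least Hmgcs1. The 5 neutrophil markers summed to 407 CPM in ConA 1 and 61.1 CPM in MSA_ConA 1, against 2.67 to 9.01 CPM in the 7 others, with 1 marker at 0 in 4 of those 7. S100a8 gave 111 and 17.6 CPM of these sums, and S100a9 gave 261 and 28.4 CPM. Retnlg and Cxcr2 were also higher in both libraries than in any other. Csf3r was highest in ConA 1, at 10.1 CPM, but at 5.79 CPM in MSA_ConA 1 it lay below the 6.40 CPM of Control 1. The 4 cholangiocyte markers summed to 653 CPM in ConA 1, of which Sox9 gave 635 CPM, and to 41.4 CPM in MSA_ConA 1, of which it gave 37.8 CPM, against 4.26 to 11.5 CPM elsewhere. Of the other markers, Krt7 had its lowest value of the 9 libraries in MSA_ConA 1, at 0.132 CPM, Krt19 stood at 1.19 CPM there against 4.84 CPM in Control 1, and Epcam at 2.24 CPM lay within the range of the libraries numbered 2 and 3. The 5 Kupffer cell markers summed to 116 CPM in MSA_ConA 1, the lowest of the set, and to 170.5 to 327 CPM in the others, with ConA 1 among them at 185 CPM. In ConA 1 Marco gave 59.2 CPM, its highest value of the set. Clec4f, Vsig4 and Timd4 had their lowest values there, at 51.5, 6.59 and 2.91 CPM, and Cd5l at 64.9 CPM lay within the range of the others. In MSA_ConA 1 Cd5l had its lowest value, at 28.6 CPM, and Clec4f, Vsig4 and Timd4 were lower than in any library but ConA 1. Marco went against this, at 18.2 CPM in MSA_ConA 1 and in Control 1, against 0.669 to 2.32 CPM in numbers 2 and 3. The 5 endothelial markers summed to 151 CPM in ConA 1 and 99.95 CPM in MSA_ConA 1, against 179 to 247 CPM elsewhere. This list was split: Kdr, Stab2 and Clec4g were lower in both libraries than in any other. Cdh5 stood at 61.1 CPM in ConA 1, its highest value, and at 34.0 CPM in MSA_ConA 1, against 18.4 to 34.4 CPM elsewhere. Pecam1 stood at 28.2 and 13.7 CPM, within the 12.5 to 28.7 CPM found elsewhere. The 3 measured monocyte and macrophage markers summed to 50.4 CPM in ConA 1 and 26.5 CPM in MSA_ConA 1, against 17.7 to 21.4 CPM elsewhere. Cd68 gave 42.4 and 22.1 CPM of these sums. Ccr2 had its lowest value of the set in ConA 1, at 0.872 CPM, and stood at 1.71 CPM in MSA_ConA 1. Adgre1 stood at 7.07 CPM in ConA 1 and had its lowest value in MSA_ConA 1, at 2.63 CPM. The 6 adipocyte markers summed to 493 CPM in MSA_ConA 1, of which Cidec gave 442 CPM and Adipoq, Plin1 and Lep gave 0. They summed to 144 CPM in ConA 1, 126 CPM in MSA_ConA 3 and 101 CPM in ConA 2, against 7.95 to 15.9 CPM elsewhere. Adipoq, Plin1 and Lep were higher in ConA 2 and MSA_ConA 3 than in any other library. The 8 skeletal muscle markers summed to 3812 CPM in MSA_ConA 3, 304 CPM in ConA 2, 280 CPM in MSA_ConA 2 and 51.5 CPM in ConA 3. In MSA_ConA 1 they summed to 121 CPM, of which Atp2a1 gave 119 CPM. Control 1 to 3 and ConA 1 held 0.727 to 2.81 CPM. The 5 T and NK cell markers summed to 1.82 to 6.59 CPM, highest in ConA 1. The part of these markers in the members' values was not tested.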

How the data were processed

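Liver RNA of 9 mice was measured by RNA sequencing, and the members and the lists of related genes and markers were chosen with earlier results of these data known. The authors deposited raw counts per gene and FPKM values for the same genes; the submitters' processing notes list the tool Bowtie (0.12.2) and the genomes mm8 and mm10, all with no role, while the deposited gene identifiers and coordinates are those of the C57BL/6NJ assembly. The deposited FPKM values equal the count divided by gene length, a size factor and a total common to all libraries. Columns named M were matched to MSA_ConA by their letter and number. Nothing but the labels says that libraries of a group came from separate animals, so p-values measure the spread between these samples.

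Counts were tested with edgeR 4.0.16 (R 4.3.3), by quasi-likelihood F tests with TMM scaling and filterByExpr, and p-values were adjusted by the Benjamini-Hochberg method over all 14603 genes at a threshold of 0.05. Groups were compared with 6 residual degrees of freedom, the library number was tested with the group in the model (5 degrees), and differences of effects came from a mean for each group and number class (3 degrees). Also run were limma-voom (limma 3.58.1) and DESeq2 1.42.0, other scalings and filters, limma on log2 FPKM, a replicate block and each library left out, and, chosen after the values were seen, numbers 2 and 3 with a replicate block (2 degrees). Named genes are all 9 members, the regulators Srebf2 and Insig1, and late enzymes among the 3 with the smallest p by number, with the genes most like the members' mean pattern. Some related genes that the rule names are not reported here. The code was checked on simulated data. Similar copies were sought with BLAST 2.17.0.

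A single count was worth 0.0579 to 0.0752 CPM before TMM scaling, and intervals between libraries (exact, 95%) cover counting error only. The floor of 3 counts, used to draw Idi1 at 0 counts, leaves out the counting error of the other library. None of the 9 pairs of libraries within a group agreed within counting noise. Deviations from the group means correlated at 0.337 to 0.720 between libraries of the same number, above the bound of 0.1 in every pair. The main treatment tests did not pair libraries by number, and the replicate block was run as an alternative. The same deviations correlated as strongly between numbers 2 and 3, at 0.332 to 0.706, and number 1 correlated with these at -0.691 to -0.394. Each group mean includes number 1, so this check sets number 1 apart. It cannot show that libraries numbered 2 pair with each other rather than with those numbered 3.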

Additional observations from a re-analysis of the deposited data

Results flagged for a closer look

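The effects listed here differed, by the test of the difference itself, between the libraries numbered 1 and those numbered 2 and 3 (edgeR's quasi-likelihood test with Benjamini-Hochberg adjustment, log2 scale). For ConA against Control, Hmgcs1 differed by -3.47 (adjusted p = 0.00914) and Fdps by -3.08 (adjusted p = 0.0171). For MSA_ConA against ConA, Sqle differed by -2.44 (adjusted p = 0.0448) and Idi1 by -8.59 (adjusted p = 0.0249), where Idi1 has 0 counts in MSA_ConA 1 and its size depends on the prior count. For MSA_ConA against Control, the difference was -5.44 for Hmgcs1, -6.68 for Fdps (2 counts in MSA_ConA 1, so that its size depends on the prior count), -1.98 for Fdft1, -1.63 for Lss, -2.17 for Mvd and -7.66 for Idi1. Number 1 is a single library in each group, and groups of 3 were too small for a test of single outlying libraries.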

How the results depend on the processing

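ConA against Control, MSA_ConA against ConA and MSA_ConA against Control called 0 members under every alternative run; DESeq2 called 2, 1 and 64 genes. With the replicate block, 0 members and 0 genes were called in all 3, so that no call changed. At an adjusted p under 0.01 the genes called were 2513 by number, 1864, 783 and 2075 for the differences of the ConA effect, the MSA_ConA effect and MSA_ConA against Control, and 1334 between controls; limma-voom gave 1623 for the MSA_ConA effect. The members called at 0.01 were then 0, 1, 0, 2 and 0. By number, 2 members were called, 1 with library totals and 1 to 5 with a library left out. For the ConA effect the 2 became 4 with DESeq2, library totals or no filter, and 2 to 4 with a library left out, the 4 without MSA_ConA 3. For the MSA_ConA effect the 2 became 0 with limma-voom and on log2(FPKM + 1), 1 on log2(FPKM + 0.1), 4 with no filter, and 0 to 3 with a library left out (1368 genes, without ConA 3, to 2403). For MSA_ConA against Control the 6 became 4 with limma-voom and on log2(FPKM + 1), 5 on log2(FPKM + 0.1), 8 with DESeq2 or library totals and 9 with no filter, and ran from 4 to 8 with a library left out. Between controls the 2 became 1 with DESeq2, limma-voom, library totals or log2(FPKM + 1), and 0 to 3 with a library left out (1340 genes, without Control 3, to 4238).

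Directions turned as follows, and the cause was not tested. Hmgcs1 stood at 0.064 and 0.44 in ConA and MSA_ConA against Control with numbers 2 and 3 only (0.060 and 0.41 with a replicate block, chosen after seeing the data), and ran from -1.39 to 0.043 in the latter with a library left out. Idi1 in MSA_ConA against ConA stood at -0.27 with limma-voom and -0.57 on log2(FPKM + 0.1), and from -0.25 to 1.37. By number, Mvd stood at -0.62 with library totals, -0.055 with no filter and -0.54 to 0.52, Fdps at 0.30 with no group term and -2.52 to 0.45, and Fdft1 from -0.83 to 0.19. In the difference of the ConA effect, Sqle stood at -0.090 with library totals and from -0.0019 to 1.07 with a library left out, and Mvk from -0.74 to 0.24. In that of the MSA_ConA effect, Pmvk ran from -0.072 to 0.98. Between controls, Mvk stood at -0.19 with library totals and from -0.21 to 0.51 with a library left out. Library totals moved the median of all genes by number from -0.10 to -0.81.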

Other observations

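Between the libraries numbered 2 and 3, which did not stand apart from each other in the markers of sex and strain, the members were higher in number 2 in 26 of 27 pairs of the same gene and group. This held for 8 of 9 members in Control, with Idi1 the exception at 2.45 against 2.91 CPM, and for all 9 in ConA and in MSA_ConA. Of all tested genes, 51.5% were higher in number 2 in Control, 53.4% in ConA and 50.6% in MSA_ConA. In MSA_ConA the pairs of Fdps (8.85 and 8.81 CPM) and Pmvk (20.2 and 20.0 CPM) were nearly level. The median log2 ratio of the members was 0.56 in Control, 0.74 in ConA and 0.59 in MSA_ConA, beside 0.00, 0.03 and 0.00 for all tested genes. With library totals the count was 24 of 27, beside 59.6%, 56.4% and 37.0% of all tested genes in Control, ConA and MSA_ConA. These are ratios between single libraries with no test.

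Csf1r, the receptor for the macrophage growth factor, had the pattern most like that of the members' mean over the 9 libraries among 8276 genes, with a correlation of 0.948. Its CPM was 60.8, 50.3 and 43.2 in Control, 31.3, 44.9 and 45.2 in ConA, and 16.7, 53.9 and 46.0 in MSA_ConA. Rnf135 (0.947), Zfp512 (0.942) and Rab29 (0.941) followed among the genes with a symbol, and 1 of the 5 nearest has none. The 9 libraries share the division by number, so these correlations are descriptions. They were not computed without number 1.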
